A study of Mus musculus with 16 samples.

Results

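The genes described here are 45 mouse genes of the tricarboxylic acid (TCA) cycle and of fatty acid oxidation, followed in cultured muscle cells that were either left alone or given electrical pulses. They were chosen by symbol from a list of enzymes, carriers and regulators. All 45 were found among the 48432 gene identifiers of the deposited table, and all 45 passed the filter on low counts that left 13987 genes for testing. By role they are 15 TCA cycle enzymes, 4 subunits of the pyruvate dehydrogenase complex, 4 kinases and 1 phosphatase of that complex, 4 proteins of the carnitine shuttle, 10 enzymes of beta-oxidation, 3 proteins of electron transfer from it, 2 proteins of fatty acid uptake and binding, and 2 uncoupling proteins.

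C2C12 is an established mouse myoblast line whose cells fuse into contractile myotubes. The labels name no genetic change in either group. Both groups came from passages 4 to 8, were kept in high-glucose medium with 2% horse serum, and had differentiated for 5 days. The control group received no pulses, and the EPS group (electrical pulse stimulation) received 6 ms pulses at 1 Hz in a field of 2.75 V/mm, with the polarity switched at 0.5 Hz. The labels give no length of stimulation. Total RNA of the cell pellet was sequenced in 4 libraries per group (16 GEO samples, 2 lanes for each of 8 libraries), and the labels do not say whether each library had its own culture. The p-values therefore refer to the spread among these libraries, which could be technical only. Being 1 line kept in rich glucose and without nerve or blood supply, the cultures are limited as a model of exercised muscle.

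The TCA cycle, in the mitochondrial matrix, oxidises acetyl-CoA and passes the electrons to the respiratory chain. Acetyl-CoA arrives from glucose through the pyruvate dehydrogenase complex, which its kinases switch off by phosphorylation and its phosphatases switch on, and from fatty acids, which enter the mitochondrion as carnitine esters and are shortened by beta-oxidation. In muscle the choice between these fuels shifts with activity and feeding, and the kinase PDK4, the carnitine palmitoyltransferases and the uncoupling protein UCP3 are long-studied points of that shift.

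Values below are CPM (counts per M fragments, M being 10 to the power of 6) scaled between libraries by TMM, fold changes are edgeR's fitted log2 values of EPS over control, and a gene was called where its p, adjusted over the 13987 genes, was under 0.05. Control replicate 2 held 0.354 M fragments, against 12.6 to 20.7 M in the other 7 libraries, and stood apart on the first principal component. Before TMM scaling, a count of 3 fragments is worth 8.68 CPM in that library and at most 0.239 CPM in the others, so its value for a low gene carries little weight. EPS replicates 1 and 2 stood apart from the other 6 libraries on the second component. Libraries with the same replicate number deviated together, as did those numbered 3 and 4 across numbers. A fit with the replicate number as a block was therefore also made. It is given beside the results for members, lists and markers where it changes a call. Myotube markers summed to between 23524 and 26858 CPM in the control libraries and between 13524 and 19923 CPM in the EPS libraries (7 genes). None of the 7 was called, where 0.758% of all genes were called lower. With the block 5 were called, all lower, where 4.78% of all genes were lower. The part of that lower marker level in the results below was not tested, and fewer myotubes and less RNA of a gene per myotube cannot be told apart in bulk RNA. The 5 adipocyte markers summed to at most 0.642 CPM in any library, and the macrophage marker Adgre1 was at 0 in all 8, while the summed macrophage list ran from 1.62 to 8.52 CPM in control and from 2.63 to 27.7 CPM in EPS. Endothelial markers summed to 0 to 1.26 CPM in control and 1.14 to 14.8 CPM in EPS, with both upper ends in EPS replicate 2. Sums for fibroblast (1446 to 4531 and 1164 to 3548 CPM), proliferating myoblast (395 to 863 and 300.2 to 689 CPM) and cardiac markers (70.3 to 145 and 43.9 to 143 CPM) overlapped between control and EPS. None of these markers was called without the block. With it the fibroblast marker Pdgfra rose (8.17 ± 1.78 CPM in control and 16.5 ± 3.72 CPM in EPS, SD, n = 4, edgeR adjusted p = 0.0141), with all EPS libraries above all controls. The fibroblast marker Dcn (adjusted p = 0.0219) and the cardiac marker Myh6 (adjusted p = 0.0492) fell with the block, with overlapping groups. Of all genes, 7.31% were higher and 4.78% lower with the block. The part of these markers in the results was not tested.

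None of the 45 genes passed the test in either direction, where 3.06% of all genes tested did (2.3% higher and 0.758% lower). At an unadjusted p under 0.05 there were 1 higher and 8 lower members, 9 of 45, where 12.2% of all genes were higher and 6.33% lower, 18.5% in all. DESeq2 called 3 members lower (Idh3g, Cd36 and Ucp2) and none higher, beside 2.14% and 4.62% of all genes. With the replicate block 5 members passed: the outer-membrane carnitine acyltransferase Cpt1a rose, and the fatty acid transporter Cd36, the thiolase Acaa2 and both uncoupling proteins, Ucp2 and Ucp3, fell. The block called 7.31% of all genes higher and 4.78% lower. With the block and without both libraries numbered 2, the members called were 2 higher and 8 lower, beside 9.1% and 8.23% of all genes, and these 5 were among them. The block with offsets for transcript length and GC content called 1 member higher and 7 lower, beside 8.35% and 5.99% of all genes, and the offsets alone called none (3.66% and 1.74%). Without control replicate 2 and without a block, Cd36 alone was lower (1.97% of all genes higher and 1.16% lower), and without EPS replicates 1 and 2 no member was called (1.66% and 0.703%).

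The members' differences leaned to one side. The log2 fold change was negative for 37 of the 45 genes, where it was negative for 49.1% of all genes tested, and its median was −0.26, against 0.01 over all genes. Without control replicate 2 the sign was negative for 36 members with a median of −0.19, and without EPS replicates 1 and 2 it was negative for 30 with a median of −0.13. In CPM, all EPS libraries lay below all control libraries in 12 members, where 4.83% of all genes did so, and in 1 member they all lay above, where 9.32% did. Leaving out control replicate 2 gave 16 and 2 such members (11.0% and 13.8% of all genes), and leaving out EPS replicates 1 and 2 gave 16 and 3 (10.7% and 16.3%). In the deposited FPKM some of the groups that were separate in CPM overlapped, as given below by gene. The lean was present in each EPS library but not of 1 size, as the median member sat 0.35, 0.42, 0.12 and 0.15 log2 units below the control mean in EPS replicates 1 to 4.

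**Figure D1:**
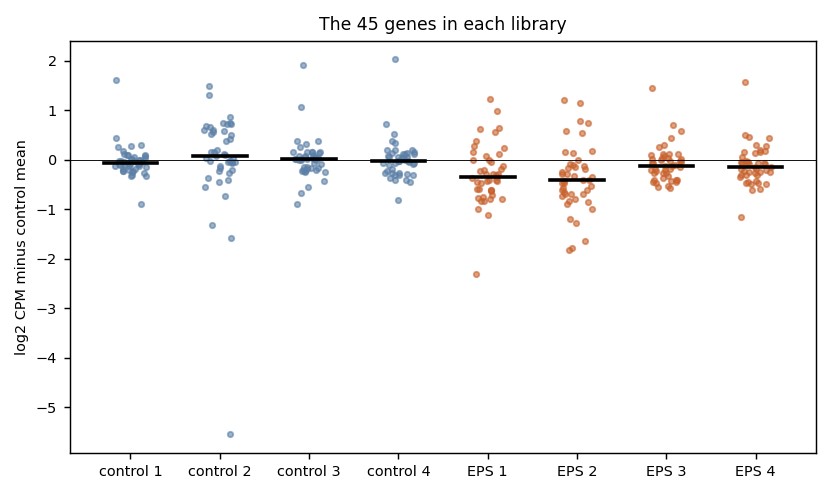
Each point is 1 of the 45 genes in 1 library, as log2 CPM minus that gene's mean over the control libraries, and the bar is the median. The EPS medians lie below 0 in all 4 libraries and farthest in replicates 1 and 2; the lowest point, in control 2, is Etfb, which had 0 fragments there, and its lowered control mean puts Etfb at the top of controls 1, 3 and 4.

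For most members the size of the difference between these libraries can be bounded. Each interval is for 1 gene alone and comes from the fit without a block, with an approximate standard error. It reflects the spread among these libraries, which could be technical only. For 35 of the 45 genes the 95% interval of the fold change lay within 2-fold in both directions, where this held for 59.3% of all genes. The interval reached past 2-fold for Idh3g, the 4 kinases Pdk1 to Pdk4, Cpt1b, Etfb, Fabp3, Ucp2 and Ucp3. Among the roles, 14 of 15 TCA enzymes, 4 of 4 subunits of the pyruvate dehydrogenase complex and 10 of 10 beta-oxidation enzymes had the narrow interval, against 1 of 5 of the kinases and phosphatase.

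**Figure D2:**
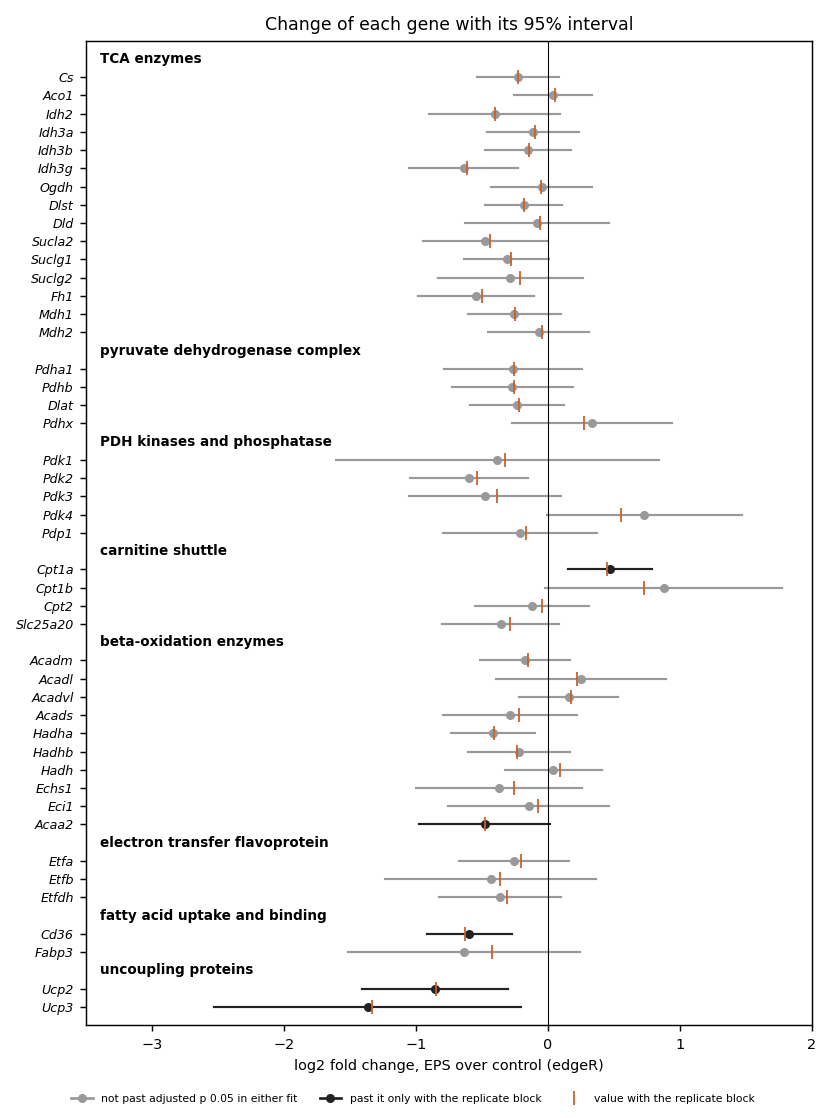
Fitted log2 fold change of EPS over control for the 45 genes by role, with its 95% interval from the fit without a block, and as a vertical tick the value with the replicate block. Most points lie to the left of 0, the intervals of Pdk1 and Ucp3 are the widest, and the 5 genes in black had an adjusted p under 0.05 in the fit with the block but not in the fit whose intervals are drawn.

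Promoters are printed for 4 of the 5 genes that were called with the block, as no start was listed for Acaa2. Each is the 250 bases before the start listed by RefSeq in the build GRCm38.p6, 5′ to 3′ on the gene's strand, with matches to the searched motifs in capitals. Of the 45 members, 41 had a promoter in that table.

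Cpt1a: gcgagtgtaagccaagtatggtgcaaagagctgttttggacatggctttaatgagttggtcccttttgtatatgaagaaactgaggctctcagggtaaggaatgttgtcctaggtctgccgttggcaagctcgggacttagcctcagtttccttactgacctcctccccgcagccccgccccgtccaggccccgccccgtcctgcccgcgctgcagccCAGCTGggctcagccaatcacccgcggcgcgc

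Cd36: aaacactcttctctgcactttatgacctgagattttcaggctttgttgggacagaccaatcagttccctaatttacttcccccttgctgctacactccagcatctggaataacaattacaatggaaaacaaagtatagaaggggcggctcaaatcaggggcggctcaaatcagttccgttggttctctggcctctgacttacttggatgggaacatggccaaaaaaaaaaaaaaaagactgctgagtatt

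Ucp2: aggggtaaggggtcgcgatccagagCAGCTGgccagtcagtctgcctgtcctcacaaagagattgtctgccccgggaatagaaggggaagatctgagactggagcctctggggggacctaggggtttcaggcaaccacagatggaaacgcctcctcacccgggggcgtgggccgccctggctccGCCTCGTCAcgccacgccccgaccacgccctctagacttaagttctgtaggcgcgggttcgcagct

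Ucp3: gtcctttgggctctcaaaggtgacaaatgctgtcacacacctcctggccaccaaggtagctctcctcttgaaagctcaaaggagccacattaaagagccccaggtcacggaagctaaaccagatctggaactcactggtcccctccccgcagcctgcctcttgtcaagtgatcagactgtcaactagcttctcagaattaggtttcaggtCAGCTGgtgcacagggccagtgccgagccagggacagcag

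The windows are chr19:3323051-3323300 (plus strand) for Cpt1a, chr5:17835897-17836146 (minus) for Cd36, chr7:100493108-100493357 (plus) for Ucp2 and chr7:100472741-100472990 (plus) for Ucp3. The myogenic E-box CAGCTG starts 32 bases before the Cpt1a start and 40 bases before that of Ucp3. In Ucp2 it starts 225 bases before, and a match to the antioxidant element TGACNNNGC, read on the other strand, starts 66 bases before. No searched motif lies in the Cd36 window. On mm10 the annotated genes run over chr19:3322334-3385733 (Cpt1a), chr5:17781690-17888801 (Cd36), chr7:100493337-100502020 (Ucp2) and chr7:100472990-100486432 (Ucp3). The Cpt1a and Cd36 windows lie inside these spans, so the bases before the 5′ end of either annotated gene were not searched. The uncoupling protein genes are neighbours, with listed starts 20367 bases apart on the same strand.

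Over the longer RefSeq window, 250 bases before to 50 after the start, both strands were searched at the first start listed for each gene. This gave 27025 promoters, those of the 41 members included. Ogdh has 6 listed starts and Pdk1 and Pdk2 have 2 each, and only the first of each was searched. The E-box CAGCTG was in 12.2% of the 41 member promoters (Cpt1a, Dld, Pdk1, Ucp2 and Ucp3) and in 16.1% of all promoters. TGACNNNGC was in 14.6% against 12.5%, and the cyclic AMP response element TGACGTCA in 4.88% (Mdh2 and Ogdh) against 1.88%. The palindromic NRF1 motif was in 1 member, Etfdh, or 2.44% against 0.977%. The estrogen-related receptor element TNAAGGTCA was in 0 of 41 against 1.26% of all, the direct-repeat PPAR element in 0 against 0.0444%, and the heat shock element in 0 against 0.529%. A match is a description of the letters, and a missing match says only that these letters are not in these windows.

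Per length, in FPKM as deposited, the members spanned a wide range of levels in the control myotubes. The highest were Pdha1, the catalytic subunit of pyruvate dehydrogenase, at 144 ± 28.8 FPKM (SD, n = 4) and citrate synthase (Cs), which opens the cycle, at 119 ± 6.46 FPKM. Pdha1 ran from 117 to 137 FPKM in the 3 deep control libraries and Cs from 114 to 128, so the order of these neighbours lies within their spread. The lowest were Ucp3 at 0.897 ± 0.323 FPKM and Cpt1b at 1.40 ± 1.39 FPKM, then Pdk4 at 6.01 ± 1.54, Suclg2 at 6.33 ± 2.66 and Cpt1a at 7.40 ± 0.663. The deep control libraries put Pdk4 at 4.03 to 6.65 FPKM, Suclg2 at 4.80 to 5.25 and Cpt1a at 6.59 to 8.16, so Pdk4 and Suclg2 overlap in level and Cpt1a overlaps Pdk4 by a narrow margin.

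Of 8 pairs of related genes that were compared, 5 had the same member higher in all 8 libraries. The non-muscle form Cpt1a stood above the muscle form Cpt1b in all 8 libraries, with an FPKM ratio from 2.2 to 14.4. The lowest ratio is that of the shallow control library, where Cpt1b had 3 fragments. Cpt1b shares 1841 bases of transcript at 100% identity with Gm44502, so this ratio and the low level of Cpt1b are uncertain. No fragment counts were available for Gm44502, and whether fragments of Cpt1b were split was not tested. Ucp2 stood above Ucp3 in all 8 with a ratio from 24.3 to 83.3, and the ATP-forming succinyl-CoA ligase subunit Sucla2 stood above its GTP-forming partner Suclg2 with a ratio from 10.4 to 19.4. Hadha stood 3.03 to 4.88 times above Hadhb in FPKM, although the proteins are the alpha and beta subunits of 1 trifunctional enzyme. The ratio of these subunits is uncertain, because the transcript of Gm13910 matches Hadhb over 1428 bases at 99.8% identity and held between 22 and 1004 fragments per library, so fragments of Hadhb could be split between them. Suclg2 likewise has a near copy, Gm15163, with 98.9% identity over 1302 bases and between 3 and 147 fragments per library, as does Pdhb, with Gm6123 (97.0% over 1079 bases, 1 to 165 fragments). Idh3g stood above Idh3a with a ratio from 2.2 to 7.78. The order of the other 3 pairs depended on the library. Pdk1 stood above Pdk4 in 7 of 8 libraries (ratio 0.565 to 15.3) and above Pdk2 in 6 of 8 (0.199 to 3.74), and Mdh2 stood above Mdh1 in 3 of 8 (0.881 to 1.35).

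**Figure D3:**
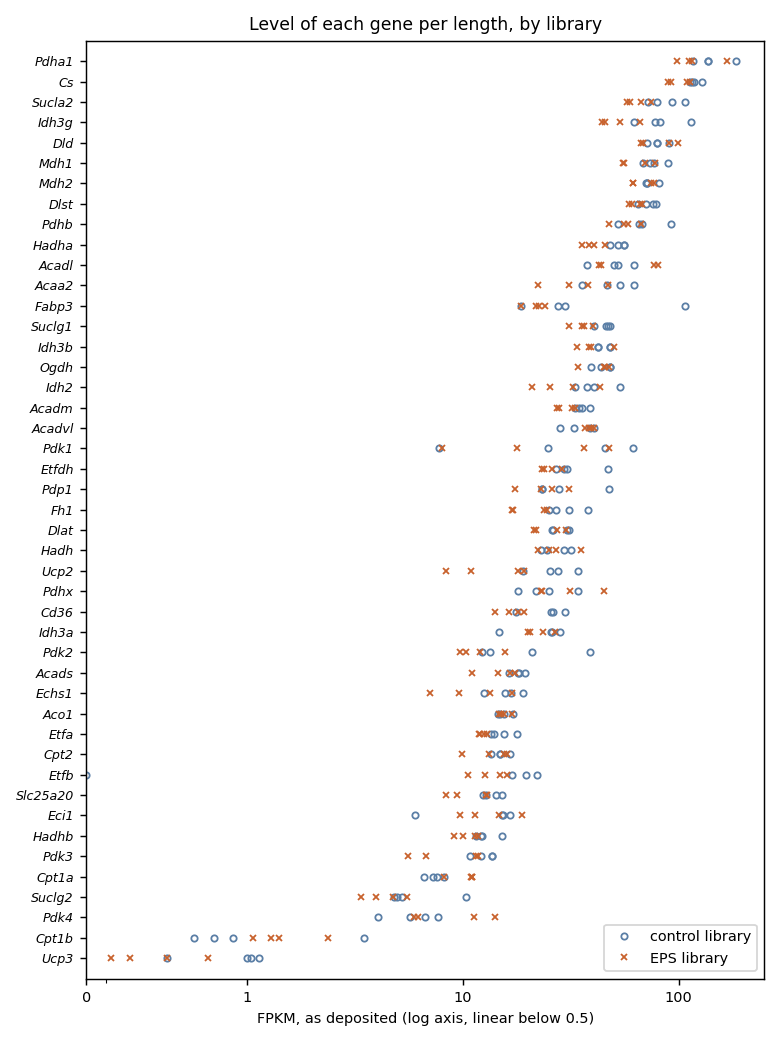
FPKM of each gene in every library (log axis, linear below 0.5), ordered by the control mean, with open circles for control and crosses for EPS. Pdha1 and Cs stand highest and Ucp3 and Cpt1b lowest, and for most genes the groups interleave.

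Among the 15 TCA cycle enzymes none was called, with or without the block, and 14 had a negative log2 fold change with a median of −0.23. In CPM, every EPS library lay below every control library in 6 of the 15, Cs, Idh3g, Dlst, Sucla2, Suclg1 and Fh1, where 4.83% of all genes did so. In the deposited FPKM the groups of Idh3g, Dlst and Sucla2 overlapped. Citrate synthase measured 344, 313, 355 and 352 CPM in control replicates 1 to 4 and 275, 310, 299 and 285 CPM in EPS replicates 1 to 4. The groups just missed each other, at the shallow control library and EPS replicate 2. Its log2 fold change was −0.23 (SE 0.14, 95% interval −0.54 to 0.08, adjusted p = 0.426).

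The largest difference among these enzymes was in Idh3g, the gamma subunit of the NAD-dependent isocitrate dehydrogenase. It measured 138, 168, 113 and 108 CPM in the control libraries and 72.9, 69.5, 94.6 and 93.9 CPM in the EPS libraries. The gap between groups was wide for replicates 1 and 2 and narrow for replicates 3 and 4, where EPS was 0.25 and 0.20 log2 units lower. The fitted log2 fold change was −0.64 (SE 0.19, adjusted p = 0.0998), or −0.61 with the block (adjusted p = 0.0539). The partner subunits Idh3a and Idh3b differed by −0.11 and −0.15 on the log2 scale, with p after adjustment of 0.751 and 0.638.

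The other 4 enzymes with groups separate in CPM were Dlst, the succinyltransferase of the oxoglutarate dehydrogenase complex (211 ± 8.07 CPM in control and 186 ± 5.34 CPM in EPS, SD, n = 4), the succinyl-CoA ligase subunits Sucla2 and Suclg1, and fumarase (Fh1). Their log2 fold changes were −0.18, −0.48, −0.31 and −0.54, with adjusted p from 0.171 (Fh1) to 0.499 (Dlst). Sucla2 was highest by far in the shallow control library, at 273 CPM against 140 to 157 CPM in the other controls. Without that library the log2 fold change of Sucla2 was −0.25 (adjusted p = 0.261), with the groups still separate in CPM (114 to 136 CPM in EPS). Fh1 was also highest in the shallow library, at 108 CPM, and its log2 fold change ran from −0.66 to −0.19 over the 19 alternative fits. The exception in sign was Aco1, the cytosolic aconitase that also acts as an iron sensor, at 64.3 ± 5.06 CPM in control and 66.9 ± 4.77 CPM in EPS (log2 fold change 0.04, 95% interval −0.26 to 0.33). The remaining 8 enzymes (Idh2, Idh3a, Idh3b, Ogdh, Dld, Suclg2, Mdh1 and Mdh2) had log2 fold changes from −0.41 to −0.05 and overlapping groups.

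None of the 4 subunits of the pyruvate dehydrogenase complex was called, and their median log2 fold change was −0.25. Pdha1 measured 382, 636, 376 and 341 CPM in control and 341, 470, 308 and 306 CPM in EPS. The replicate 2 libraries were the highest of each group, and the groups overlapped, while EPS was lower within all 4 replicate numbers. Its log2 fold change was −0.27 (SE 0.24, adjusted p = 0.594). Pdhx, which tethers the dihydrolipoamide dehydrogenase to the complex, had the largest difference and the opposite sign. It measured 58.9, 99.4, 50.7 and 44.2 CPM in control and 77.8, 104, 55.2 and 58.4 CPM in EPS, with overlapping groups and a log2 fold change of 0.33 (SE 0.27, adjusted p = 0.560), which was 0.52 without control replicate 2 and 0.03 without EPS replicates 1 and 2. The catalytic beta subunit Pdhb and the acetyltransferase Dlat had log2 fold changes of −0.27 and −0.23.

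The kinases that inactivate the complex did not share a sign, and none was called in the fits of all 8 libraries with or without the block. Pdk4, the isoform known to rise with fasting and exercise, had a positive log2 fold change of 0.73 (SE 0.33, 95% interval −0.01 to 1.47, adjusted p = 0.278). Its libraries measured 17.9, 28.4, 12.0 and 21.7 CPM in control and 37.8, 44.0, 18.1 and 21.3 CPM in EPS. The EPS libraries 1 and 2 lay above all controls, and EPS libraries 3 and 4 lay within the control range. Within replicate numbers 1 to 4 the difference was 1.07, 0.63, 0.59 and −0.03 log2 units, and with the block the adjusted p was 0.0915. Without EPS replicates 1 and 2 the log2 fold change of Pdk4 was 0.13.

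The other 3 kinases had negative values. Pdk2 measured 51.2, 82.4, 56.0 and 42.1 CPM in control and 32.4, 31.5, 40.3 and 39.7 CPM in EPS. Its groups missed each other narrowly in CPM and overlapped in the deposited FPKM, and the highest control value was that of the shallow library. The log2 fold change of Pdk2 was −0.60 (SE 0.20, adjusted p = 0.145), and it ran from −0.75 to −0.28 over the 19 alternative fits. Pdk3 measured 19.6, 25.6, 23.3 and 24.2 CPM in control and 12.8, 10.0, 20.0 and 22.1 CPM in EPS, with overlapping groups and a log2 fold change of −0.48 (SE 0.26, adjusted p = 0.362). Pdp1, a phosphatase that reactivates the complex, measured 58.5, 134, 64.8 and 57.0 CPM in control and 47.5, 64.2, 73.5 and 63.3 CPM in EPS. The shallow library was the highest, and the other 3 controls lay within the range of the EPS libraries. Its log2 fold change was −0.21 (SE 0.26, adjusted p = 0.718), and 0.05 without that library (adjusted p = 0.889).

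Pdk1, the kinase isoform known as a target of the hypoxia factor HIF-1, varied more between replicate numbers than between conditions. It measured 113, 42.6, 268 and 212 CPM in control and 85.7, 36.4, 208 and 177 CPM in EPS. The libraries fell in the same order of replicate numbers in both groups, lowest in 2 and highest in 3. The spread over the EPS libraries was 5.72-fold, while the EPS value lay below its control by 0.39, 0.23, 0.36 and 0.26 log2 units for replicates 1 to 4. The log2 fold change had an SE of 0.55 without the block (−0.39, adjusted p = 0.760) and of 0.13 with it (−0.33, adjusted p = 0.128). With the block and without both libraries numbered 2 Pdk1 passed, at −0.35 (adjusted p = 0.0325).

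In the carnitine shuttle, Cpt1a rose in the fit with the replicate block, the only member to rise there. CPT1 joins long-chain fatty acids to carnitine at the outer mitochondrial membrane, and this step limits the rate of their oxidation. Cpt1a measured 40.1, 36.9, 39.3 and 36.9 CPM in control and 59.8, 55.9, 51.5 and 46.2 CPM in EPS. In CPM all 4 EPS libraries lay above all controls, and the control libraries, the shallow one included, were nearly level. In the deposited FPKM the groups met, with control replicate 3 and EPS replicate 4 both at 8.16. The log2 fold change was 0.47 (SE 0.14, adjusted p = 0.112), a 1.38-fold higher level, and 0.45 with the block (SE 0.12, adjusted p = 0.0407).

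The muscle isoform Cpt1b measured 3.14, 8.52, 1.73 and 2.68 CPM in control and 5.00, 7.54, 3.26 and 4.76 CPM in EPS. The highest value was that of the shallow library, from 3 fragments, and every EPS library lay above the other 3 controls. The fitted log2 fold change was 0.88 (SE 0.41, adjusted p = 0.283), the largest positive value among the members, and with the block it was 0.73 (adjusted p = 0.0852). With the block and without both libraries numbered 2 it passed, at 0.78 (adjusted p = 0.0453). Cpt1b shares 1841 bases of transcript with the annotated gene Gm44502, for which no fragment counts were available, so the counts of Cpt1b are uncertain. The inner-membrane enzyme Cpt2 measured 34.0, 28.4, 35.3 and 37.2 CPM in control and 32.6, 21.7, 34.3 and 38.5 CPM in EPS, with overlapping groups and a log2 fold change of −0.12 (SE 0.19, adjusted p = 0.786). Slc25a20, the carnitine-acylcarnitine carrier, had a value of −0.36 on the log2 scale (adjusted p = 0.375). The shuttle therefore held values of both signs, with a median of 0.17.

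Of the 10 beta-oxidation enzymes, Acaa2, the thiolase of the last step, fell in the fit with the replicate block, and no other was called in either fit. Acaa2 measured 67.2, 82.4, 101 and 92.3 CPM in control and 42.2, 52.2, 77.9 and 74.6 CPM in EPS. The groups overlapped, since EPS replicates 3 and 4 lay above control replicate 1, but EPS was lower within every replicate number, by 0.67, 0.66, 0.37 and 0.31 log2 units. Its log2 fold change was −0.48 (SE 0.22, adjusted p = 0.291), with an SE of 0.13 and an adjusted p of 0.0347 under the block. Without EPS replicates 1 and 2 and without a block it was −0.19 for Acaa2.

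Hadha, which carries the hydratase and long-chain dehydrogenase activities, had the highest control mean of these enzymes per length, at 53.1 ± 3.84 FPKM (SD, n = 4). Acadl, at 50.7 ± 10.2 FPKM, lay within that spread, and its EPS mean was above that of Hadha (60.8 against 40.1 FPKM). Hadha measured 240, 236, 229 and 216 CPM in control and 173, 146, 184 and 184 CPM in EPS. Its groups were separate by a clear margin, and the log2 fold change was −0.42 (SE 0.14, adjusted p = 0.151, or 0.0695 with the block). With the block and without both libraries numbered 2 Hadha passed, at −0.35 (adjusted p = 0.0391). The partner subunit Hadhb stood at −0.22 on that scale (adjusted p = 0.539). The acyl-CoA dehydrogenases, which start each round, did not share a sign: the values were −0.17 for medium-chain Acadm, 0.25 for long-chain Acadl, 0.16 for very-long-chain Acadvl and −0.29 for short-chain Acads, with adjusted p from 0.547 to 0.700. Hadh, Echs1 and Eci1 had values of 0.04, −0.37 and −0.15. Over the 10 enzymes the median was −0.20, and 7 were negative.

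Electrons from these dehydrogenases pass to the electron transfer flavoprotein and its membrane oxidoreductase, and none of the 3 genes was called. Etfdh, the oxidoreductase and the highest of the 3 per length, measured 76.1, 139, 75.5 and 72.9 CPM in control and 63.4, 58.8, 72.1 and 72.3 CPM in EPS. In CPM the groups were separate, but by under 1 CPM between control replicate 4 and EPS replicate 4, and in the deposited FPKM they overlapped. The log2 fold change of Etfdh was −0.36 (SE 0.21, adjusted p = 0.389), or −0.17 without control replicate 2. Etfa had separate groups too, at 15.3 to 25.6 CPM in control and 12.9 to 15.1 CPM in EPS (log2 fold change −0.26, adjusted p = 0.504). Etfb measured 17.9, 22.3 and 24.0 CPM in control replicates 1, 3 and 4 and 13.7, 9.78, 16.0 and 17.5 CPM in EPS. It had 0 fragments in control replicate 2, which allows a level of up to 8.68 CPM there before TMM scaling, so that library decides whether the groups overlap. The log2 fold change was −0.43 (SE 0.36, adjusted p = 0.568), and with the block and without both libraries numbered 2 it was −0.45 (adjusted p = 0.0356).

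Cd36, a membrane protein that takes up long-chain fatty acids, came closest of the 45 to the threshold without a block. It measured 53.1, 54.0, 61.4 and 52.2 CPM in control and 31.9, 41.0, 37.9 and 35.7 CPM in EPS. In CPM every EPS library lay below every control library, and no single library stood out in either group. In the deposited FPKM the groups overlapped. The shallow control replicate 2 was at 17.6 FPKM, against 19.3 and 17.9 FPKM in EPS replicates 2 and 3. The fitted log2 fold change was −0.60 (SE 0.15, 95% interval −0.92 to −0.27, adjusted p = 0.0560), a level 0.662 times that of control. It fell in the fit with the block (−0.63, SE 0.12, adjusted p = 0.00948), and passed also without control replicate 2 (adjusted p = 0.0494) and without EPS replicate 2 (adjusted p = 0.0373). The other 6 fits that left out 1 library did not call it. Over the 19 alternatives run, its log2 fold change kept its sign, Cd36 was called in 7, and the adjusted p ran from 1.22e-10, with the block and without EPS replicates 1 and 2, which leaves 1 residual degree of freedom, to 0.246.

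Fabp3, the cytosolic fatty acid binding protein of muscle and heart, measured 28.4, 93.8, 24.7 and 19.1 CPM in control and 22.1, 16.8, 22.6 and 22.1 CPM in EPS. The shallow control library was more than 3 times the next value, and the other 3 controls overlapped the EPS libraries. Its log2 fold change of −0.64 (SE 0.40, adjusted p = 0.434) was −0.21 without that library (adjusted p = 0.526). Fabp3 also has a near copy, Fabp3-ps1, with 99.3% identity over 402 bases and between 26 and 622 fragments per library. Its annotated span overlaps Zcchc17 on the opposite strand by 81 bases, and that of Etfdh overlaps 4930579G24Rik by 422 bases, where fragments cannot be told apart if strand was not used.

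Both uncoupling proteins fell in the fit with the replicate block, and they had the largest negative differences of the 45 genes. These inner-membrane carriers can let protons or metabolites cross without ATP synthesis; UCP2 is broadly expressed and UCP3 is largely restricted to skeletal muscle and brown fat. Ucp2 measured 98.8, 122, 118 and 124 CPM in control and 53.1, 36.9, 78.9 and 85.9 CPM in EPS. In CPM every EPS library lay below every control library, and EPS replicates 1 and 2 were the lowest. In the deposited FPKM Ucp2 overlapped by a narrow margin, with control replicate 1 at 19.09 and EPS replicate 3 at 19.15. Its log2 fold change was −0.85 (SE 0.25, adjusted p = 0.0999), a level 0.553 times that of control, and the adjusted p with the block was 0.0133 (SE 0.18). Within replicate numbers 1 to 4 the difference was −0.89, −1.72, −0.59 and −0.53 log2 units, and without EPS replicates 1 and 2 and without a block the fitted value for Ucp2 was −0.49.

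Ucp3 and Cpt1b were the lowest of the 45 genes per length, and their order depends on the library. Ucp3 had the lower control mean, but Cpt1b lay below it in control replicates 3 and 4 (0.569 and 0.705 FPKM against 1.13 and 0.999), and the mean of Cpt1b includes 3.47 FPKM from 3 fragments in the shallow library. Ucp3 measured 1.30, 2.84, 3.31 and 3.30 CPM in control and 0.412, 0.642, 1.91 and 1.06 CPM in EPS. The groups overlapped, since control replicate 1 lay below EPS replicate 3, but each EPS library lay below the control of its own number. The value of control replicate 2 came from 1 fragment and is under the limit that a count of 0 allows. The log2 fold change was −1.37 (SE 0.53, 95% interval −2.53 to −0.20, adjusted p = 0.195), and −1.34 with the block (SE 0.34, adjusted p = 0.0312). Without both libraries numbered 2 the blocked value was −1.31 (adjusted p = 0.0277), and without EPS replicates 1 and 2 and without a block it was −0.83. Gm10603 overlaps Ucp3 by 1857 bases on the opposite strand, with 2 to 32 fragments per library, and whether counting used strand is not stated in the labels.

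**Figure D4:**
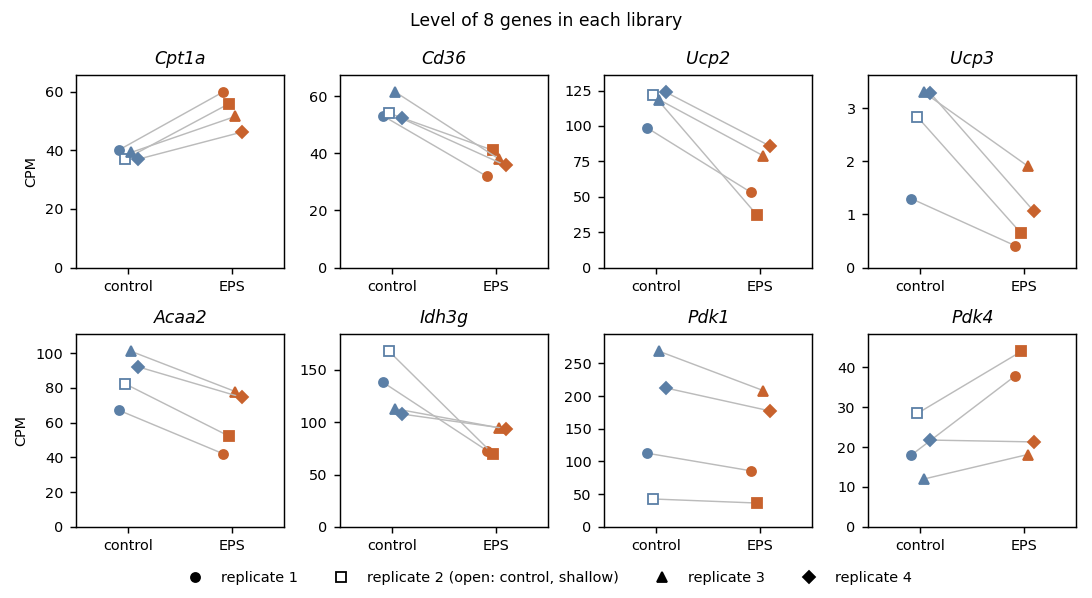
CPM of 8 genes in each library, with grey lines joining libraries of the same replicate number and an open square for the shallow control replicate 2. Cpt1a is higher and Cd36, Ucp2, Ucp3, Acaa2, Idh3g and Pdk1 are lower in EPS within every replicate number, while Pdk1 differs more between numbers than between groups, and Pdk4 is higher in 3 of 4 numbers.

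Direction within replicate numbers showed the same lean as the medians. EPS was lower than the control of the same number in all 4 numbers for 22 of the 45 genes, where 15.8% of all genes did so. It was higher in all 4 for 3 genes, Aco1, Pdhx and Cpt1a, where 22.0% of all genes did so. The uncoupling proteins had the lowest role median, −1.11. Cd36 and Fabp3 had a median of −0.62, which averages 2 genes, of which Fabp3 stood at −0.21 without the shallow library. In the fit of all 8 libraries the carnitine shuttle was the only role with a positive median.

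Among other genes of these pathways, called genes were few, and with the block they lay in both directions. Of 25 further TCA cycle and pyruvate genes, 1 passed the test, beside 3.06% of all genes tested, and 5 of the 25 had a positive log2 fold change. The gene that passed was Me1, the cytosolic malic enzyme that makes NADPH and pyruvate from malate. Me1 measured 18.6, 31.3, 18 and 17.0 CPM in control and 53.9, 73.4, 44.8 and 42.5 CPM in EPS. All EPS libraries lay above all controls, and Me1 rose by a log2 fold change of 1.49 (SE 0.23, adjusted p = 0.00783). It fell short of the threshold without any 1 of control replicates 1, 3 and 4, which left 0 of the 25 called. With the block pyruvate carboxylase (Pcx), which refills the cycle with oxaloacetate, rose as well (1.02, SE 0.19, adjusted p = 0.00785), beside 7.31% of all genes higher. The list's median was −0.20.

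None of the 40 further fatty acid oxidation genes tested (of 44 listed) was called, with 7 of 40 at an unadjusted p under 0.05, beside 18.5% of all genes. The smallest p was that of Plin2, a coat protein of lipid droplets, at 82.7 ± 18.4 CPM in control and 139 ± 13.1 CPM in EPS (SD, n = 4; log2 fold change 0.71, adjusted p = 0.0582). With the block 3 rose, namely Plin2, the fatty acid transporter Slc27a1 and the peroxisomal transporter Abcd2, and 3 acyl-CoA synthetases fell, Acsl1, Acsl3 and Acsl6, beside 7.31% of all genes higher and 4.78% lower. Acsl1, which activates fatty acids for oxidation in muscle, had a blocked log2 fold change of −0.54 (adjusted p = 0.0307), beside −0.63 for Cd36. The list's median was −0.07, with 19 positive and 21 negative values.

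Of 18 transcriptional regulators tested (of 20 listed), 1 passed, beside 3.06% of all genes tested. The regulator that passed was Ppard, the PPAR isoform that drives fatty acid oxidation genes in muscle. Ppard measured 23.7, 5.68, 21.1 and 23.4 CPM in control and 58.1, 67.1, 38.5 and 37.0 CPM in EPS. The groups were separate, and Ppard rose by a log2 fold change of 1.24 (SE 0.28, adjusted p = 0.0414). This call was lost when any 1 of control replicates 1, 3 or 4 or of EPS replicates 1 or 2 was left out, with 0.77 (adjusted p = 0.0864) without both EPS replicates 1 and 2. Ppargc1a, the coactivator PGC-1alpha, stood at −0.51 (adjusted p = 0.560) and fell with the block (−0.87, adjusted p = 0.0224), beside 4.78% of all genes lower.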

How the data were processed

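RNA-seq of 4 control and 4 EPS libraries was used as 1 deposited table of the whole series. The tools were Cuffdiff 2.2.1, Cufflinks and STAR 2.5.1 on the build mm10, per the submitters' processing notes. The annotation release was not given in the sources used here, nor was the strand setting. Per the file headers, the table holds an estimated count of fragments per gene and library, not scaled, and FPKM after the authors' scaling between libraries. Another 2 columns of scaled fragments were not used. Whole numbers made up 93.3% of the deposited estimated counts over 0, and the rest were rounded. Symbols came from the GENCODE annotation of the same build, matched on the identifier without version (48051 of 48432). In 46 genes, none of them a member, the table marks a skipped estimate, and these were left out.

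Genes were filtered with filterByExpr (minimum count 10, minimum total 15), scaled by TMM and, in R 4.3.3, put through the quasi-likelihood test of edgeR 4.0.16 (with limma 3.58.1). The 8 libraries entered without a covariate, with Benjamini-Hochberg adjustment over 13987 genes. DESeq2 1.42.0, limma on log2(FPKM + 0.1) and log2(FPKM + 1), offsets for length and GC content, other filters and left-out libraries were alternatives. The F statistic and fold change together gave each approximate standard error. The deposited FPKM served to set levels between genes. Whether groups overlap was judged in CPM, and for some members the answer differs in FPKM. The groups of Cpt1a, Cd36, Ucp2, Idh3g, Dlst, Sucla2, Pdk2 and Etfdh were separate in CPM but not in FPKM. Groups and replicate numbers came from the sample titles. Same-numbered libraries deviated together from their group means (correlations over all genes of 0.300, 0.214, 0.286 and 0.297 for numbers 1 to 4). So did control replicate 4 with EPS replicate 3 (0.253) and control replicate 3 with EPS replicate 4 (0.231). Numbers 3 and 4 were therefore barely told apart. All other pairings of unlike numbers lay between −0.289 and 0.00557. The numbers were taken to pair the libraries from these same data, and the labels do not say what a number shares. Near copies were transcripts with at least 95% identity over at least 200 bases. Limits from a count of 3 fragments cover counting error only.

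The members and lists were chosen with earlier results of these data known. Genes are named in full where they passed in either fit, regulate or carry, or stand highest per length or differ most in their role; other members are given by range, and other lists by the genes past the threshold or the smallest p.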

Additional observations from a re-analysis of the deposited data

Results flagged for a closer look

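In 12 of 90 groups of 4 libraries (45 genes in 2 conditions), 1 library's CPM lay farther from its nearest neighbour than Dixon's 95% limit allows, a limit that chance passes in about 1 of 20 groups. The library was control replicate 2, with 0.354 M fragments, in 11 of the 12. It was the highest control library at 269.9 CPM for Dld, 272.7 for Sucla2, 28.41 for Suclg2, 636.4 for Pdha1, 133.5 for Pdp1, 25.57 for Etfa, 139.2 for Etfdh and 93.76 for Fabp3. It was the lowest control library at 45.46 CPM for Idh3a, 82.39 for Mdh2 and 5.682 for Eci1. The remaining case was Fabp3 in EPS replicate 2, at 16.84 CPM against 22.1 to 22.6 CPM in the other EPS libraries. The part of sequencing depth in these values was not tested.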

How the results depend on the processing

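Of the 45 genes, 31 kept the sign of their log2 fold change in 18 alternatives and 14 did not, while 12 were called in at least 1 and 33 in none. The same shares over all genes were not computed, so these counts do not set the members apart from other genes. The fits with the replicate block, with the block and without replicate 2, and without EPS replicates 1 and 2 were compared as described, the last 2 kinds being chosen after seeing the data; a 19th, the block without EPS replicates 1 and 2, leaves 1 residual degree of freedom, and its counts are given only for completeness.

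Without a covariate 322 of all genes were higher and 106 lower. These counts were 633 and 294 with DESeq2, 510 and 242 with length and GC offsets, 94 and 29 with limma at a pseudocount of 0.1 FPKM, and 130 and 48 at 1 FPKM. Without a filter 162 were lower. Leaving out 1 library gave 92 to 427 higher and 22 to 167 lower. The replicate block gave 1023 and 668, the block with length and GC offsets 1164 and 836, the block without replicate 2 1290 and 1167, and the block without EPS replicates 1 and 2 2045 and 2182.

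Members called higher and lower, 0 and 0 without a covariate, were 0 and 3 with DESeq2, 1 and 4 with the replicate block, 1 and 7 with the block and offsets, 2 and 8 with the block without replicate 2, and 3 and 15 with the block without EPS replicates 1 and 2. Leaving out 1 library gave 0 to 1 lower. By role, TCA enzymes lower were 1 with DESeq2, 2 with block and offsets, 1 with the block without replicate 2 and 6 with the block without EPS replicates 1 and 2. Beta-oxidation enzymes lower were 1 with the block and 2 in each of its 3 variants. Uncoupling proteins lower were 1 with DESeq2 and 2 in all 4 blocked fits, fatty acid uptake and binding lower was 1 with DESeq2 and in the 4 blocked fits and 0 to 1 with 1 library left out, and carnitine shuttle higher was 1, 1, 2 and 2 in the 4 blocked fits. The block without replicate 2 called 1 kinase and 1 electron transfer flavoprotein gene lower, and without EPS replicates 1 and 2 it called 2 and 1, with 1 pyruvate dehydrogenase subunit higher and 1 lower. The cause of these differences between fits was not tested. The block changed no other member's call.

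Of the other TCA cycle and pyruvate genes, 2 were higher with DESeq2, without a filter, with offsets, with the block, with block and offsets and with the block without replicate 2 (1 lower there), 3 were higher and 3 lower with the block without EPS replicates 1 and 2, and 0 to 2 were higher with 1 library left out. Other fatty acid oxidation genes higher and lower were 1 and 1 with DESeq2, 3 and 3 with the block, 4 and 4 with block and offsets, 5 and 3 with the block without replicate 2 and 7 and 5 without EPS replicates 1 and 2; 1 was higher with offsets, 1 was lower without a filter, and 0 to 1 were higher and 0 to 1 lower with 1 library left out. Regulators higher were 0 with limma at either pseudocount and without EPS replicates 1 and 2, 0 to 1 with 1 library left out and 4 in the block without EPS replicates 1 and 2; regulators lower were 1 with the block, with block and offsets and with the block without replicate 2, and 3 in the block without EPS replicates 1 and 2.

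Deviation from the control mean correlated with log2 transcript length, over 13947 genes within a library, at −0.02, 0.14, −0.17 and −0.16 in control replicates 1 to 4 and at 0.11, 0.16, −0.17 and −0.14 in EPS replicates 1 to 4. The part of transcript length in the calls beyond the offsets was not tested. The shallow control library limits every low gene: Cpt1b rests there on 3 fragments, Ucp3 on 1 and Etfb on 0.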

Other observations

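The wider lists held genes at or near 0 in these myotubes. Plin5, a lipid droplet protein of oxidative muscle, was at 0 in all 8 libraries. Ehhadh, a peroxisomal enzyme, reached at most 0.566 CPM, and Fabp4 at most 0.0802 CPM.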
